A study of Mus musculus with 6 samples.

Results

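The spliceosome removes introns from pre-mRNA with the help of small nuclear ribonucleoproteins (snRNPs), the SF3 and PRP protein groups, and regulators that bind the RNA and decide which exons are kept. The genes described here encode these proteins and their relatives. They were chosen by gene symbol, as the rows of the deposited differential table whose name starts with Srsf and a digit, Tra2, Hnrnp, Snrp, Sf3a or Sf3b, U2af, Prpf, or Rbm and a digit, x or y, or is one of Clk1 to Clk4. There were 109 such members among the 14003 genes of the table, and 103 of the 10338 genes with enough signal to be tested were members. The rule uses only names and the presence of a row, with no fold change or p-value. The gene set was nonetheless put together with results of these data known, so counts and medians over the members are descriptions and carry no test of the list.

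The series compared cells given 200 µM sulfasalazine (SAS, 3 libraries) with cells left untreated (CTL, 3 libraries), both harvested at 24 h. Sulfasalazine is an anti-inflammatory drug. The cells of both groups are wild-type cells labelled MC3T3-E1, a preosteoblast line derived from mouse calvaria. No vehicle is named for either group, and no source says whether replicates were separate cultures, so p-values measure the spread between these libraries, which may be technical.

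Library totals behind the FPKM values (fragments scaled to gene length and library total) were 22133529, 20423810 and 19717988 reads in SAS libraries 1, 2 and 3, and 20016068, 21314458 and 16379093 reads in CTL libraries 1, 2 and 3. The lowest read number of a tested member in any library was 30, and the median over tested members and libraries was 1638.5 reads. CTL library 3 stood apart: on the first principal component over all tested genes, which held 88.6% of the variance, it scored 42.6, against 65.3 and 63.2 for the other CTL libraries and -59.2 to -54.1 for the SAS libraries. Markers of the labelled cell type were only partly present. Runx2, an osteoblast transcription factor, had 17.6, 16.8 and 19.8 FPKM in SAS, against 24.9, 24.6 and 20.9 FPKM in CTL. It was called lower by limma (log2 fold change -0.36, adjusted p = 0.0441). Of 11 osteoblast markers listed beforehand, 7 were in the table, and Alpl, Col1a2, Ibsp and Dmp1 had no row. Col1a1, Bglap, Sp7 and Phex, 4 of the 7, had a mean below 1 FPKM. Spp1 had 932, 851 and 1057 FPKM in SAS, against 1513, 2015 and 2077 FPKM in CTL, and was called lower. It makes up nearly all of the sum over the 7, which was 889 to 1110 FPKM in SAS and 1549 to 2142 FPKM in CTL. Sparc was not called (log2 fold change 0.28, adjusted p = 0.624). The 6 epithelial markers in the table summed to 1884 to 2093 FPKM in SAS and 1293 to 1452 FPKM in CTL, but they did not move together. The keratin genes Krt8 and Krt18 were called higher (log2 fold changes 1.65 and 0.37) and Krt19 lower (-1.21). The 4 macrophage and osteoclast markers summed to 17.8 to 28.7 FPKM in SAS and 32.0 to 56.3 FPKM in CTL, with Csf1r and Ctsk near 0. Mitochondrial genes took 3.80%, 3.72% and 3.72% of reads in SAS libraries 1, 2 and 3, and 2.10%, 2.21% and 1.47% in CTL libraries 1, 2 and 3. The part of these shifts in the results below was not tested.

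Most of the tested members were lower in sulfasalazine-treated cells. Of the 103 tested members, 66 fell (64.1%), 15 rose (14.6%) and 22 did not pass the threshold (limma on log2(FPKM + 1), two-sided, Benjamini-Hochberg adjusted p under 0.05 over all tested genes). The same test called 29.3% of all tested genes lower and 37.2% higher. The members had a median log2 fold change of -0.63 (SAS over CTL, quartiles -1.15 and -0.05), beside 0.08 for all tested genes (quartiles -0.58 and 0.79). The summed level of the 109 members was 6979 ± 300.2 FPKM in SAS and 10611 ± 158 FPKM in CTL (SD, n = 3 each). FPKM values are relative to the library, and a lower level per cell cannot be told apart from fewer cells that express the gene.

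The 3 SAS values lay wholly below the 3 CTL values for 69 of the tested members and wholly above them for 16. Over all tested genes those shares were 31.1% and 40.3%. With 3 libraries a group, the smallest p of an exact permutation test of 1 gene is 0.1, so the calls rest on the spread that limma shares across genes. Falls of more than 1 on the log2 scale were called for 35 members, where 13.9% of all tested genes passed that rule. Rises of more than 1 were called for 3, where 19.2% of all tested genes did. In the authors' deposited table, which has a p-value for every row, 69 of the 109 members were lower and 17 higher at an adjusted p under 0.05. Of all 14003 genes, the authors' deposited table had 26.8% lower and 28.2% higher. The sign of the change was the same there for 97.1% of the tested members, and the 3 exceptions were members that did not pass here.

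The direction was shared across the 9 name classes: in each, more members were called lower than higher. The Srsf genes and the Tra2 genes had the lowest medians, at -1.33 and -2.32, and the Sf3a and Sf3b genes the median nearest to 0, at -0.36. Medians of the other classes were -0.88 for Clk, -0.74 for Hnrnp, -0.63 for Snrp, -0.98 for the 2 tested U2af genes, -0.42 for Prpf and -0.55 for Rbm. The Srsf sum was 739 ± 62.1 FPKM in SAS and 1615 ± 56.0 FPKM in CTL. The Hnrnp sum, the largest of the 9, was 2265 ± 152 FPKM in SAS and 3107 ± 169 FPKM in CTL.

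**Figure D1:**
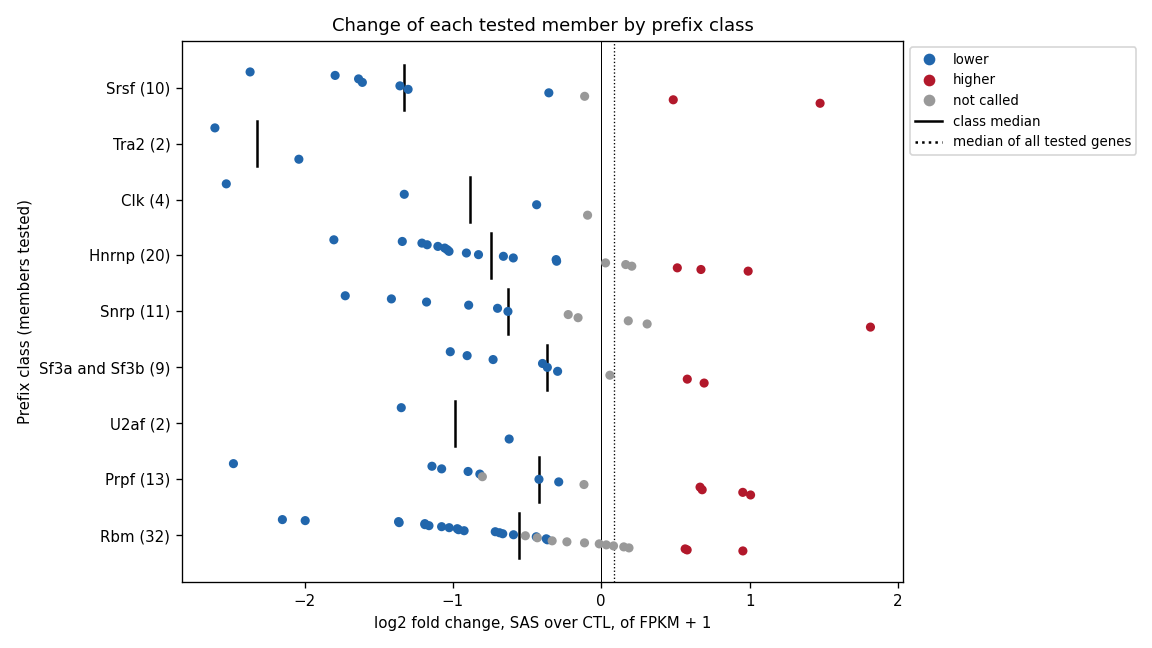
Log2 fold change (SAS over CTL, of FPKM + 1) of each of the 103 tested members, one row per name class, coloured by call, with the class median as a vertical bar and the median of all tested genes (0.08) as a dotted line. Most points lie left of 0 in every class, from -2.60 for Tra2b, and 3 lie beyond 1 on the right.

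SR proteins bind exonic enhancers through RNA recognition motifs and recruit the splicing machinery through an arginine- and serine-rich tail. Of the 10 Srsf genes tested, 7 fell, 2 rose and 1 did not pass. Srsf3 (ENSMUSG00000071172, chr17:29032628-29043373, plus strand, GRCm38), whose protein also serves mRNA export, fell furthest of them. It had 52.5, 49.8 and 75.5 FPKM in SAS libraries 1, 2 and 3, against 336, 309.8 and 271 FPKM in CTL libraries 1, 2 and 3. The SAS values were all far below the CTL values, and the log2 fold change was -2.37 (SE 0.17, adjusted p = 1.62e-05).

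Srsf1, the classical SR splicing factor, had 62.3, 63.4 and 87.1 FPKM in SAS, against 209, 222 and 229 FPKM in CTL. Its log2 fold change was -1.64 (SE 0.14, adjusted p = 3.7e-05), and SAS library 3 was the highest of the 3 SAS libraries, still far below every CTL library. Srsf7, which like Srsf3 takes part in mRNA export, had 38.6, 41.5 and 54.99 FPKM in SAS, against 134, 159 and 181 FPKM in CTL, and it fell by 1.79 on the log2 scale (SE 0.17, adjusted p = 4.74e-05). Srsf2, a nuclear speckle protein and the most abundant of the class, had 145, 139 and 174 FPKM in SAS, against 463, 415 and 527 FPKM in CTL. The groups did not overlap and the log2 fold change was -1.61 (SE 0.13, adjusted p = 3.06e-05). Another gene, mainly Mettl23 on the opposite strand, covers 25.3% of the exonic bases of Srsf2, and whether reads were counted by strand is not stated.

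Srsf10 and Srsf11 fell by 1.36 and 1.30 on the log2 scale, and Srsf4 by 0.35 (adjusted p = 0.0257). These 3 complete the 7 falls and were named to account for the class. The Srsf4 call was lost without any 1 SAS library (adjusted p = 0.105, 0.0733 and 0.0515 without SAS libraries 1, 2 and 3). Exonic bases of Srsf4 are covered to 43% by another gene, mainly Gm12992 on the opposite strand. Srsf9 had 48.7, 52.9 and 52.2 FPKM in SAS, against 46.5, 55.04 and 66.5 FPKM in CTL, and its groups overlapped (adjusted p = 0.504).

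Srsf5 and Srsf6 went the other way. Srsf5 (ENSMUSG00000021134, chr12:80945504-80950507, plus strand) had 126, 123 and 116 FPKM in SAS libraries 1, 2 and 3, against 44.04, 47.6 and 38.02 FPKM in CTL libraries 1, 2 and 3. The SAS mean was 2.81 times the CTL mean with no overlap, and the log2 fold change was 1.48 (SE 0.11, adjusted p = 2.16e-05). Srsf6 had 100.04, 104 and 106 FPKM in SAS, against 66.7, 81.3 and 73.3 FPKM in CTL, a smaller rise with no overlap (0.49 (SE 0.11, adjusted p = 0.0042)). In CTL the level per gene length of Srsf5 was the lowest of the 10 genes and in SAS it was the second highest, after Srsf2.

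The Tra2 genes encode relatives of SR proteins that bind purine-rich enhancers, and both fell. Tra2b (ENSMUSG00000022858, chr16:22244549-22266005, minus strand) had 35.7, 31.5 and 45.2 FPKM in SAS libraries 1, 2 and 3, against 246, 259 and 193 FPKM in CTL libraries 1, 2 and 3. Its SAS mean was 0.161 of its CTL mean, and the log2 fold change, -2.60 (SE 0.17, adjusted p = 1.02e-05), was the lowest among the members. Tra2a had 17.01, 14.3 and 18.3 FPKM in SAS, against 80.6, 73.2 and 59.9 FPKM in CTL, and the log2 fold change was -2.04 (SE 0.15, adjusted p = 1.81e-05). Neither gene's groups overlapped.

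The Clk genes encode dual-specificity kinases that phosphorylate SR proteins, and 3 of the 4 fell. Clk4 (ENSMUSG00000020385, chr11:51261730-51281766, plus strand) had 3.999, 4.43 and 7.12 FPKM in SAS libraries 1, 2 and 3, against 49.1, 38.2 and 20.5 FPKM in CTL libraries 1, 2 and 3. Its SAS values rest on few reads, 94, 96 and 149 in SAS libraries 1, 2 and 3. CTL library 3 was the lowest CTL value and SAS library 3 the highest SAS value, yet the groups stayed apart (-2.53 (SE 0.32, adjusted p = 0.000237)). Clk1 had 11.5, 13.2 and 17.7 FPKM in SAS, against 46.9, 51.97 and 19.7 FPKM in CTL. Here CTL library 3 lay close to SAS library 3, and the log2 fold change was -1.33 (SE 0.35, adjusted p = 0.00934), ranging from -1.92 to -1.08 over the alternatives. Clk3, the class member with the highest mean over the 6 libraries, had 45.9, 45.01 and 41.9 FPKM in SAS, against 55.7, 57.04 and 68.5 FPKM in CTL (-0.44 (SE 0.12, adjusted p = 0.0111)); Edc3 on the opposite strand covers most of the 15.2% of Clk3 exonic bases that are shared. Clk2 had 40.3, 39.4 and 41.3 FPKM in SAS, against 44.6, 43.6 and 40.9 FPKM in CTL, which overlapped (adjusted p = 0.441).

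**Figure D2:**
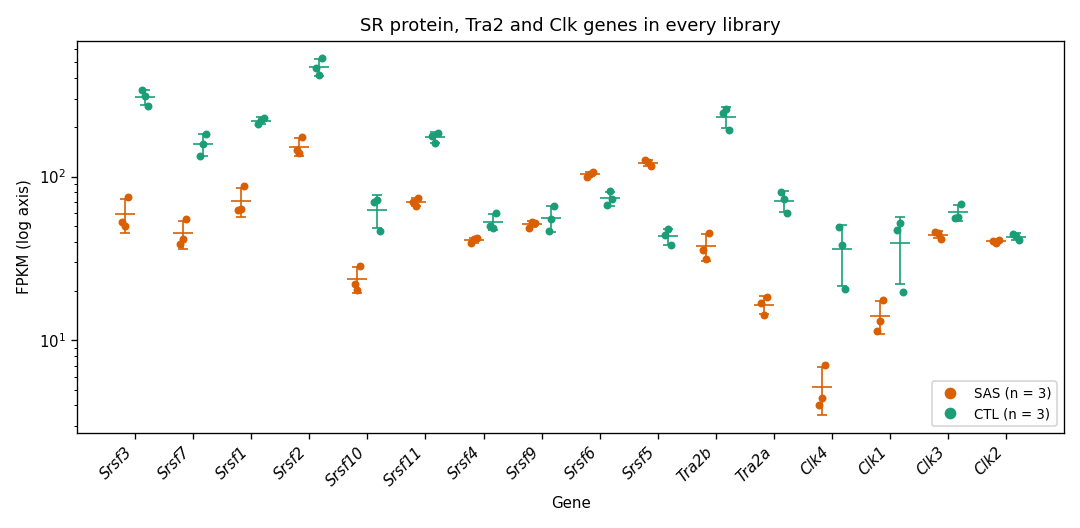
FPKM (log axis) of the 10 Srsf, 2 Tra2 and 4 Clk genes in each SAS library (orange) and each CTL library (green), with mean and SD as bars (n = 3 each). Srsf3 averaged 59.3 ± 14.1 FPKM in SAS and 306 ± 32.6 FPKM in CTL, and Srsf5 and Srsf6 are the only genes of the plot called higher in SAS.

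The upstream sequences of the genes at both ends of the range are shown because the members moved together and in both directions. Each stretch is 120 bases of RefSeq sequence (GRCm38.p6), 5′ to 3′ on the gene's strand, ending before the more upstream of the RefSeq start and the start in the table. For Clk4 the RefSeq start lies 1384 bases inside the span the table gives, and the stretch ends before the RefSeq start. Capitals mark the word TGACGT or its reverse complement ACGTCA, the core of sites bound by CREB and ATF factors. The 4 with the lowest log2 fold changes come first and the 2 with the highest last.
Tra2b: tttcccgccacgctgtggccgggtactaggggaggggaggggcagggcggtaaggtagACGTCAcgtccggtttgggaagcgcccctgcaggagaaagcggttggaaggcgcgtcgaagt
Clk4: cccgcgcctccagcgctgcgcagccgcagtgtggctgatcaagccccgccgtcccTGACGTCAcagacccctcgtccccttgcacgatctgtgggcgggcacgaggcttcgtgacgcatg
Prpf38b: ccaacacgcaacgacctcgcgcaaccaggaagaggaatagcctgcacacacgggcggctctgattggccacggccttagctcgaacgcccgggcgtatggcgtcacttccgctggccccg
Srsf3: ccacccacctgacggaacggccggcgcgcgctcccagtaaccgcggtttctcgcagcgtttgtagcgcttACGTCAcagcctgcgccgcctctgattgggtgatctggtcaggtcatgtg
Snrpd2: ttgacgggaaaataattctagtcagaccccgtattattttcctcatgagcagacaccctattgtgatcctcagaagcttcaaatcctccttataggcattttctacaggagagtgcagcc
Srsf5: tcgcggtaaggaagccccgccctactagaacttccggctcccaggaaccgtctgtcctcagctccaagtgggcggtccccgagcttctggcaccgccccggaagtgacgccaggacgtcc
The stretches lie at chr16:22266006-22266125 (minus strand), chr11:51262994-51263113 (plus strand), chr3:108911730-108911849 (minus strand), chr17:29032508-29032627 (plus strand), chr7:19149602-19149721 (plus strand) and chr12:80945379-80945498 (plus strand). The word stands once in the stretches of Tra2b and Srsf3, and in Clk4 both words overlap in the palindrome TGACGTCA. The stretches of Prpf38b, Snrpd2 and Srsf5 do not hold these letters.

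Of the 109 members, 91 had a RefSeq window of 250 bases before to 50 bases after the start. TGACGT, on either strand, was in 18 of the 57 windows of members called lower (31.6%), in 2 of 14 of members called higher (14.3%) and in 6 of 20 of the remaining members (30%). It was in 14.2% of the 8328 tested genes with a window and in 8.37% of all 27025 genes of the window table. The ETS core CCGGAAG was in 31.6% of windows of members called lower, in 21.4% of those called higher and in 22.6% of tested genes. The E-box CACGTG was in 15.8%, 7.14% and 12.3% in the same order, the TATA word TATAAA in 14%, 0% (0 of 14) and 7.83%, and the GC box GGGCGG in 66.7%, 64.3% and 72.3%. In all 18 words were searched, after the calls were known, and TGACGT was picked for the capitals after its shares were seen. Of the other 13, 8 were TGACGTCA, the ETS word CCGGAAGT, the CCAAT box as CCAAT and as ATTGGCT, the word CTCGCGAG, the octamer ATGCAAAT, the AP-1 word TGAGTCA and the YY1 word AAGATGGC. The remaining 5 were longer words, namely those of NRF1, NF-kappaB and ZNF143 and extended forms of TGACGTCA and of CTCGCGAG. Some of these words contain another. The palindrome TGACGTCA was in 5.26% of windows of members called lower and 3.85% of tested genes, and its extended form in none of the 91 member windows (0%) and 1.09% of tested genes. CTCGCGAG was in 8.77% of windows of members called lower (5 windows) and 2.5% of tested genes, and its extended form in 5.26% (3 windows) and 1.37%, both further in ratio from the tested genes than TGACGT was. CCAAT was in 43.9% of windows of members called lower, 64.3% of those called higher and 43.6% of tested genes. Since the word was picked with its shares known, they are descriptions with no test and support nothing. Members not called held TGACGT about as often as those called lower.

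The hnRNP proteins coat nascent RNA, and many silence exons. Of the 20 tested, 14 fell, 3 rose and 3 did not pass. Hnrnpdl had 22.5, 19.96 and 26.6 FPKM in SAS, against 86.3, 77.6 and 82.999 FPKM in CTL, the largest fall of the class (-1.80 (SE 0.13, adjusted p = 1.63e-05)). Its paralogue Hnrnpd, which binds AU-rich elements, had 51.4, 51.1 and 63.2 FPKM in SAS, against 124, 121 and 142 FPKM in CTL (-1.21 (SE 0.12, adjusted p = 7.83e-05)). Both genes had every SAS library below every CTL library. Hnrnpa3 had 4.21, 5.38 and 4.63 FPKM in SAS, against 18.9, 14.4 and 8.93 FPKM in CTL, a spread of CTL values that exceeded the spread in SAS (-1.34 (SE 0.25, adjusted p = 0.00189)), and 27.1% of its 50-base words are found in transcripts of other genes.

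The 3 most abundant hnRNP genes of CTL, Hnrnpk, Hnrnpu and Hnrnpa1, also fell. Hnrnpk, a poly(C)-binding protein, had 372, 336 and 352 FPKM in SAS, against 567, 575 and 531 FPKM in CTL (-0.66 (SE 0.10, adjusted p = 0.000746)). Hnrnpu, which binds RNA and nuclear scaffold, had 194, 165 and 209 FPKM in SAS, against 406, 435 and 329.95 FPKM in CTL (-1.04 (SE 0.14, adjusted p = 0.00036)). Hnrnpa1, which antagonises SR proteins at many exons, had 197, 177 and 221 FPKM in SAS, against 286, 294 and 314 FPKM in CTL (-0.59 (SE 0.11, adjusted p = 0.00214)). Of the 50-base words of Hnrnpa1, 28.2% occur in other genes, so its reads cannot be assigned with certainty. The related Hnrnpa2b1 had 224, 235 and 297 FPKM in SAS, against 235, 241 and 179.8 FPKM in CTL. Its groups overlapped (adjusted p = 0.274), with SAS library 3 highest and CTL library 3 lowest of the 6.

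The 3 hnRNP genes called higher were Hnrnpl, Hnrnpa0 and Hnrnpr. Hnrnpl, which binds CA repeats, had 321, 312 and 306 FPKM in SAS, against 143, 145 and 187 FPKM in CTL with CTL library 3 the highest CTL value and no overlap (0.99 (SE 0.13, adjusted p = 0.000244)). Hnrnpa0 had 68.04, 64.997 and 70.9 FPKM in SAS, against 34.4, 42.9 and 51.1 FPKM in CTL (0.67 (SE 0.15, adjusted p = 0.00434)). Hnrnpr had 16.8, 14.7 and 17.2 FPKM in SAS, against 10.5, 11.9 and 10.8 FPKM in CTL (0.51 (SE 0.14, adjusted p = 0.0111)), a call lost without SAS library 1 (adjusted p = 0.0613).

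The other 8 hnRNP genes called lower had log2 fold changes from -1.17 to -0.30. The following were named after their values were seen. Hnrnpc, which binds uridine tracts, had 131, 127 and 138 FPKM in SAS, against 255, 271 and 283 FPKM in CTL (-1.03 (SE 0.10, adjusted p = 5.31e-05)). Hnrnpm had 85.3, 73.7 and 83.4 FPKM in SAS, against 187, 206 and 137 FPKM in CTL (-1.10 (SE 0.16, adjusted p = 0.000458)). In Hnrnpm CTL library 3 was the lowest CTL value, and in Hnrnpc it was the highest. The smallest falls were those of Hnrnpul1 and Hnrnpf, and both calls were lost without either of SAS libraries 1 and 2 or CTL libraries 1 and 2 (adjusted p = 0.0522 to 0.124 over both genes). That of Hnrnpf was also lost without SAS library 3 (adjusted p = 0.0861) and under quantile normalization (adjusted p = 0.162). Hnrnpab and Hnrnpul2, like Hnrnpa2b1, had overlapping groups, with log2 fold changes of 0.03 and 0.17 (adjusted p = 0.87 and 0.356).

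The Snrp genes encode the Sm proteins, which form a ring of 7 on the spliceosomal snRNAs, and proteins particular to the U1 and U2 snRNPs. Of the 11, 6 fell, 1 rose and 4 did not pass, and the genes of the Sm ring differed from each other. Snrpe had 39.6, 37.96 and 28.1 FPKM in SAS, against 82.1, 87.6 and 117 FPKM in CTL (-1.41 (SE 0.18, adjusted p = 0.00023)). Snrpf had 105, 101 and 102 FPKM in SAS, against 199.9, 218 and 292 FPKM in CTL (-1.18 (SE 0.15, adjusted p = 0.000205)), but other genes, mainly Ccdc38 on the opposite strand, cover 85.4% of its exonic bases. Snrpd1 had 46.5, 48.3 and 62.8 FPKM in SAS, against 92.2, 104 and 96.5 FPKM in CTL (-0.89 (SE 0.14, adjusted p = 0.000588)). For these 3 the groups did not overlap.

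Snrpd2 (ENSMUSG00000040824, chr7:19149722-19153542, plus strand), whose protein sits next to that of Snrpd1 in the ring, had 70.3, 77.3 and 66.9 FPKM in SAS libraries 1, 2 and 3, against 16.8, 19.9 and 22.4 FPKM in CTL libraries 1, 2 and 3. The SAS mean was 3.63 times the CTL mean, and the log2 fold change, 1.81 (SE 0.13, adjusted p = 1.83e-05), was the highest among the members. Snrpb, the most abundant of the class, had 223, 223 and 221 FPKM in SAS, against 240.5, 252 and 288 FPKM in CTL. Its SAS values were all lower, but it did not pass the threshold (log2 fold change -0.22, adjusted p = 0.0935), except under median-of-ratios scaling (adjusted p = 0.0327). The remaining ring genes, Snrpd3 and Snrpg, did not pass (log2 fold changes -0.16 and 0.31), but median-of-ratios scaling called Snrpd3 lower (adjusted p = 0.0444), and quantile normalization called Snrpg higher (adjusted p = 0.0461). Without CTL library 3 Snrpg was called higher (adjusted p = 0.00914), as was Snrpc of the U1 snRNP (adjusted p = 0.0194), so that 3 Snrp genes were higher in that fit.

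Of the U1 and U2 proteins, Snrpa1 of the U2 snRNP fell furthest. It had 19.4, 18.6 and 20.3 FPKM in SAS libraries 1, 2 and 3, against 57.1, 67.9 and 76.2 FPKM in CTL libraries 1, 2 and 3. The SAS values lay close together and far below every CTL value (-1.73 (SE 0.13, adjusted p = 2.1e-05)). Snrpa of the U1 snRNP and Snrpb2 of the U2 snRNP fell by 0.70 and 0.63 on the log2 scale. The Snrpb2 call was lost without SAS library 2 (adjusted p = 0.055). Snrpd3, Snrpg, Snrpc, Snrpa and Snrpb2 were named after their values were seen, to complete the class.

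**Figure D3:**
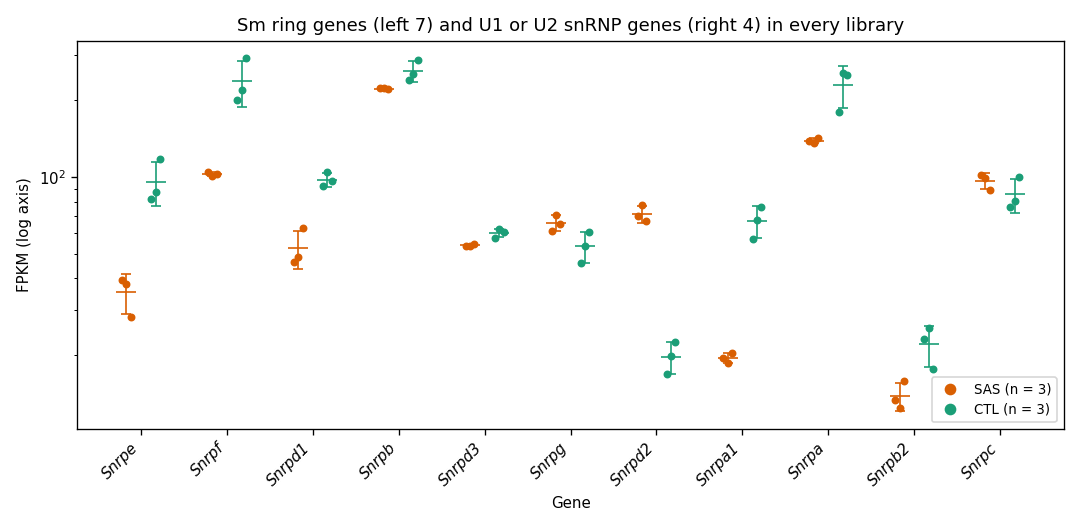
FPKM (log axis) of the 7 Sm ring genes and of 4 genes of the U1 or U2 snRNP in each SAS library (orange) and each CTL library (green), with mean and SD as bars (n = 3 each). Snrpe, Snrpf and Snrpd1 are lower in SAS and Snrpd2 is higher, at 71.5 ± 5.27 FPKM in SAS and 19.7 ± 2.81 FPKM in CTL.

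SF3a and SF3b are the protein complexes of the U2 snRNP that hold it at the branch point. Of the 9 genes, 6 fell, 2 rose and 1 did not pass. In SF3a, Sf3a2 had 185, 182 and 189 FPKM in SAS, against 343, 366 and 424 FPKM in CTL (-1.02 (SE 0.11, adjusted p = 0.000109)). Sf3a1 had 123, 120.3 and 120.4 FPKM in SAS, against 223, 215 and 246 FPKM in CTL (-0.90 (SE 0.10, adjusted p = 0.000101)). Sf3a3 had 40.3, 39.1 and 33.8 FPKM in SAS, against 36.8, 38.5 and 33.2 FPKM in CTL, and its groups overlapped (log2 fold change 0.06, adjusted p = 0.685), and median-of-ratios scaling turned the sign (-0.07).

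Sf3b1, the largest SF3b subunit, which grips the branch point helix, had 47.1, 42.3 and 53.6 FPKM in SAS, against 99.6, 84.6 and 59.2 FPKM in CTL (-0.73 (SE 0.19, adjusted p = 0.00993)). CTL library 3 was the lowest CTL value and lay near SAS library 3. Sf3b3 averaged 112 ± 2.41 FPKM in SAS and 148 ± 15.5 FPKM in CTL (-0.40 (SE 0.11, adjusted p = 0.0121)), and its call was lost without SAS library 1 (adjusted p = 0.0545). Sf3b6, which contacts the branch point adenosine, averaged 92.7 ± 6.08 FPKM in SAS and 119 ± 4.07 FPKM in CTL (-0.36 (SE 0.10, adjusted p = 0.0109)), and its call was lost without SAS library 1 or 2 (adjusted p = 0.0596 and 0.061). Sf3b4 averaged 184 ± 1.62 FPKM in SAS and 227 ± 22.6 FPKM in CTL (-0.29 (SE 0.11, adjusted p = 0.0393)). That call was lost in 9 of the 15 alternatives, among them leaving out any library other than CTL library 1 (adjusted p = 0.0519 to 0.124), and 43.6% of the 50-base words of Sf3b4 occur in other genes.

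Sf3b2, the most abundant of the 9 in SAS and second to Sf3a2 in CTL, rose. It had 421, 434 and 402 FPKM in SAS libraries 1, 2 and 3, against 245, 251 and 281 FPKM in CTL libraries 1, 2 and 3, with no overlap (0.69 (SE 0.10, adjusted p = 0.000579)). Sf3b5, the smallest SF3b subunit, had 41.7, 41.9 and 37.3 FPKM in SAS, against 22.1, 23.9 and 35.5 FPKM in CTL (0.58 (SE 0.18, adjusted p = 0.0207)). It no longer passed with median-of-ratios scaling (adjusted p = 0.062), nor without any 1 of SAS libraries 1 and 2 and CTL libraries 1 and 2 (adjusted p = 0.0671 to 0.0746). Without SAS library 1, 3 of the 9 genes were called lower and 1 higher.

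U2AF reads the end of the intron before the U2 snRNP binds, and both tested subunits fell. U2af1, which recognises the AG at the 3′ splice site, had 70.9, 72.3 and 79.4 FPKM in SAS, against 168, 187 and 219 FPKM in CTL (-1.35 (SE 0.12, adjusted p = 4.48e-05)). U2af2, which binds the polypyrimidine tract and is the more abundant, had 203, 192 and 228 FPKM in SAS, against 289, 303 and 370.5 FPKM in CTL (-0.62 (SE 0.13, adjusted p = 0.00321)). Neither overlapped between the groups. Of the 50-base words of U2af1, 21.7% occur in other genes. The third class member, U2af1l4, is listed at 0, 0.405 and 0 FPKM in SAS and at 0, 0.0777 and 0 FPKM in CTL and was not tested.

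The Prpf genes, named after yeast pre-mRNA processing mutants, encode tri-snRNP proteins, the PRP19 ubiquitin ligase and others. Of the 13, 7 fell, 4 rose and 2 did not pass. Prpf38b (ENSMUSG00000027881, chr3:108902805-108911727, minus strand) had 19.5, 17.9 and 24.3 FPKM in SAS libraries 1, 2 and 3, against 138, 129 and 93.2 FPKM in CTL libraries 1, 2 and 3. Its SAS mean was 0.171 of its CTL mean (-2.48 (SE 0.18, adjusted p = 1.62e-05)). Its paralogue Prpf38a, a protein of the activating spliceosome, had 8.33, 9.93 and 10.9 FPKM in SAS, against 23.9, 22.7 and 18.2 FPKM in CTL (-1.08 (SE 0.16, adjusted p = 0.000602)).

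The 3 proteins of the U4/U6 snRNP encoded in this class moved in both directions. Prpf3 had 33.5, 32.6 and 30.9 FPKM in SAS, against 83.7, 72.5 and 62.7 FPKM in CTL (-1.14 (SE 0.13, adjusted p = 0.000123)). Its binding partner Prpf4 had 6.63, 7.198 and 9.11 FPKM in SAS, against 4.27, 3.96 and 4.88 FPKM in CTL, at a far lower level per length (0.68 (SE 0.17, adjusted p = 0.00718)). Prpf31 had 40.9, 44.3 and 42.4 FPKM in SAS, against 19.6, 20.5 and 21.9 FPKM in CTL (1.01 (SE 0.11, adjusted p = 0.000113)), and Gm15927 on the opposite strand is the main gene among those covering 18.1% of its exonic bases. None of the 3 overlapped between the groups.

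Prpf19, the ubiquitin ligase, was the most abundant of the class in SAS but not in CTL, where Prpf38b and Prpf8 had higher means. It had 220.5, 217 and 190.1 FPKM in SAS, against 87.9, 97.8 and 143 FPKM in CTL (0.95 (SE 0.18, adjusted p = 0.00189)). CTL library 3 was the highest CTL value, closer to the SAS libraries than the others. Prpf8, the core protein of the U5 snRNP and of the catalytic centre, had 98.7, 96.6 and 93.02 FPKM in SAS, against 133, 112 and 109 FPKM in CTL (-0.29 (SE 0.11, adjusted p = 0.0457)). That call was lost in 9 of the 15 alternatives, among them leaving out any library other than CTL library 3 (adjusted p = 0.0648 to 0.122). 

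Further genes of the class were named after their values were seen. Prpf4b, a kinase of the tri-snRNP, had 14.6, 13.6 and 15.7 FPKM in SAS, against 36.5, 32.4 and 18.6 FPKM in CTL (-0.90 (SE 0.24, adjusted p = 0.0101)). Prpf40b had 32.3, 32.4 and 31.9 FPKM in SAS, against 15.8, 21.2 and 23.5 FPKM in CTL (0.67 (SE 0.16, adjusted p = 0.00595)). Its SAS values lay close together and above every CTL value. Prpf6, which bridges the tri-snRNP, fell to 53.8 ± 4.38 FPKM in SAS, against 72.2 ± 3.69 FPKM in CTL (-0.42 (SE 0.11, adjusted p = 0.0087)). Prpf18, a factor of the second step, overlapped between the groups (adjusted p = 0.657). Prpf39 did not pass (-0.80 (SE 0.32, adjusted p = 0.0523)). It was called lower with voom, median-of-ratios scaling and quantile normalization (adjusted p = 0.0488, 0.0241 and 0.012) and without CTL library 3 (log2 fold change -1.17, adjusted p = 0.000862), the CTL library with 6.91 FPKM, against 18.4 and 13.7 FPKM in the other two.

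The Rbm genes encode proteins with RNA recognition motifs and with varied roles, many of them in splicing. Of the 32 tested, 19 fell, 3 rose and 10 did not pass. Rbm39, a U2AF-related splicing factor, was second to Rbm17 in SAS and the most abundant of them in CTL. It had 68.3, 64.99 and 100.4 FPKM in SAS libraries 1, 2 and 3, against 359, 398 and 204 FPKM in CTL libraries 1, 2 and 3. CTL library 3 was the lowest CTL value and still well above every SAS library (-1.996 (SE 0.27, adjusted p = 0.000309)). Rbm18 had 11.95, 11.98 and 15.1 FPKM in SAS, against 77.5, 62.9 and 46.2 FPKM in CTL, the largest fall of the class (-2.15 (SE 0.20, adjusted p = 4.73e-05)). Rbm19, known for ribosomal RNA processing, had 31.4, 31.5 and 31.5 FPKM in SAS, against 85.1, 82.5 and 80.7 FPKM in CTL, with a spread inside each group much smaller than the gap between them (-1.37 (SE 0.10, adjusted p = 1.41e-05)).

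Rbm3, a protein induced by cold, had 24.5, 24.97 and 35.2 FPKM in SAS, against 54.8, 51.6 and 67.9 FPKM in CTL (-1.02 (SE 0.17, adjusted p = 0.00106)). Rbmx, also known as hnRNP G, had 14.5, 12.2 and 22.5 FPKM in SAS, against 22.9, 37.9 and 37.9 FPKM in CTL. SAS library 3 and CTL library 1 of Rbmx nearly met, and its call (-0.97 (SE 0.27, adjusted p = 0.0118)) was lost without CTL library 2 (adjusted p = 0.0513). Rbm10, Rbm14 and Rbm4b were the 3 Rbm genes called higher. Rbm4b had 8.34, 8.698 and 7.75 FPKM in SAS, against 3.68, 4.39 and 3.31 FPKM in CTL (0.95 (SE 0.15, adjusted p = 0.000787)), Rbm14, a paraspeckle protein, 48.7, 49.8 and 55.6 FPKM in SAS, against 31.5, 31.1 and 40.2 FPKM in CTL (0.58 (SE 0.13, adjusted p = 0.00534)), and Rbm10, a splicing regulator, 31.3, 30.01 and 33.9 FPKM in SAS, against 18.4, 21.7 and 23.5 FPKM in CTL (0.57 (SE 0.13, adjusted p = 0.00587)).

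The other 14 Rbm genes called lower had log2 fold changes from -1.36 to -0.36, and those named next were chosen after their values were seen. Rbm8a, the Y14 core protein of the exon junction complex, had 29.03, 28.8 and 31.6 FPKM in SAS, against 55.5, 62.4 and 54.6 FPKM in CTL (-0.92 (SE 0.11, adjusted p = 0.000164)). Rbm25, a splicing factor that binds exonic sequences, had 55.1, 50.7 and 65.3 FPKM in SAS, against 145, 147 and 98.5 FPKM in CTL (-1.16 (SE 0.18, adjusted p = 0.000595)). Both had every SAS value below every CTL value. Rbm5 and Rbm6, neighbouring genes of related splicing regulators, differed in call: Rbm5 had 72.1, 68.3 and 71.5 FPKM in SAS, against 113, 95.7 and 82.1 FPKM in CTL (-0.44 (SE 0.13, adjusted p = 0.0167), lost without SAS library 2 at an adjusted p of 0.063). Rbm6 had 23.1, 20.1 and 24.7 FPKM in SAS, against 34.7, 35.9 and 23.3 FPKM in CTL, which did not pass (-0.43 (SE 0.18, adjusted p = 0.0668)) but was called lower with median-of-ratios scaling (adjusted p = 0.0209), with quantile normalization (adjusted p = 0.024) and without CTL library 3 (log2 fold change -0.62, adjusted p = 0.00171). Whether the pair differed from each other was not tested. Rbm17 and Rbm22, both proteins of the spliceosome itself, stood at 114 ± 14.2 FPKM in SAS and 115 ± 7.09 FPKM in CTL and at 54.7 ± 1.78 FPKM in SAS and 53.6 ± 4.99 FPKM in CTL, with overlapping groups (adjusted p = 0.926 and 0.794).

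The calls of Rbm7, Rbm15b, Rbm34, Rbm47 and Rbm48, all lower, were each lost in the absence of any of several single libraries (adjusted p = 0.0503 to 0.132). That of Rbm34 was also lost with no filter (adjusted p = 0.0566). Without CTL library 3, Rbm15, Rbm27 and Rbm41 were called lower and Rbm45 higher (adjusted p = 0.0398, 0.0098, 0.00226 and 0.0268). Rbm41 was also called lower under quantile normalization (adjusted p = 0.0115). These genes were named after their values were seen, because their calls changed.

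Rbm genes called in both directions share sequence with other genes. Of those called higher, 30.8% of the exonic bases of Rbm4b and 21% of those of Rbm14 lie in other genes. For Rbm10, 41% of the 50-base words occur in other genes. Among those called lower, the share of such words was 79.6% for Rbmxl1 and 55.1% for Rbm12b2, named after their values were seen. Of the 109 members, 19 had over 20% of their exonic bases or words shared in this way. The 5 Rbm genes not tested, Rbm8a2, Rbm12b1, Rbm20, Rbm42 and Rbm43, were below the filter, which asks for 1 FPKM in 3 libraries. The highest of them, Rbm43, had 0.815, 1.45 and 2.45 FPKM in SAS, against 0.3605, 0.4401 and 0.485 FPKM in CTL. Every tested member reached 1 FPKM in at least 1 library of each group. Rbm12b2, called lower, did so in only 1 SAS library (0.963, 0.545 and 1.38 FPKM in SAS libraries 1, 2 and 3). Its CTL values were 4.06, 2.96 and 2.38 FPKM, so it passed the filter only with the CTL group, where it is high. It is in the counts above.

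**Figure D4:**
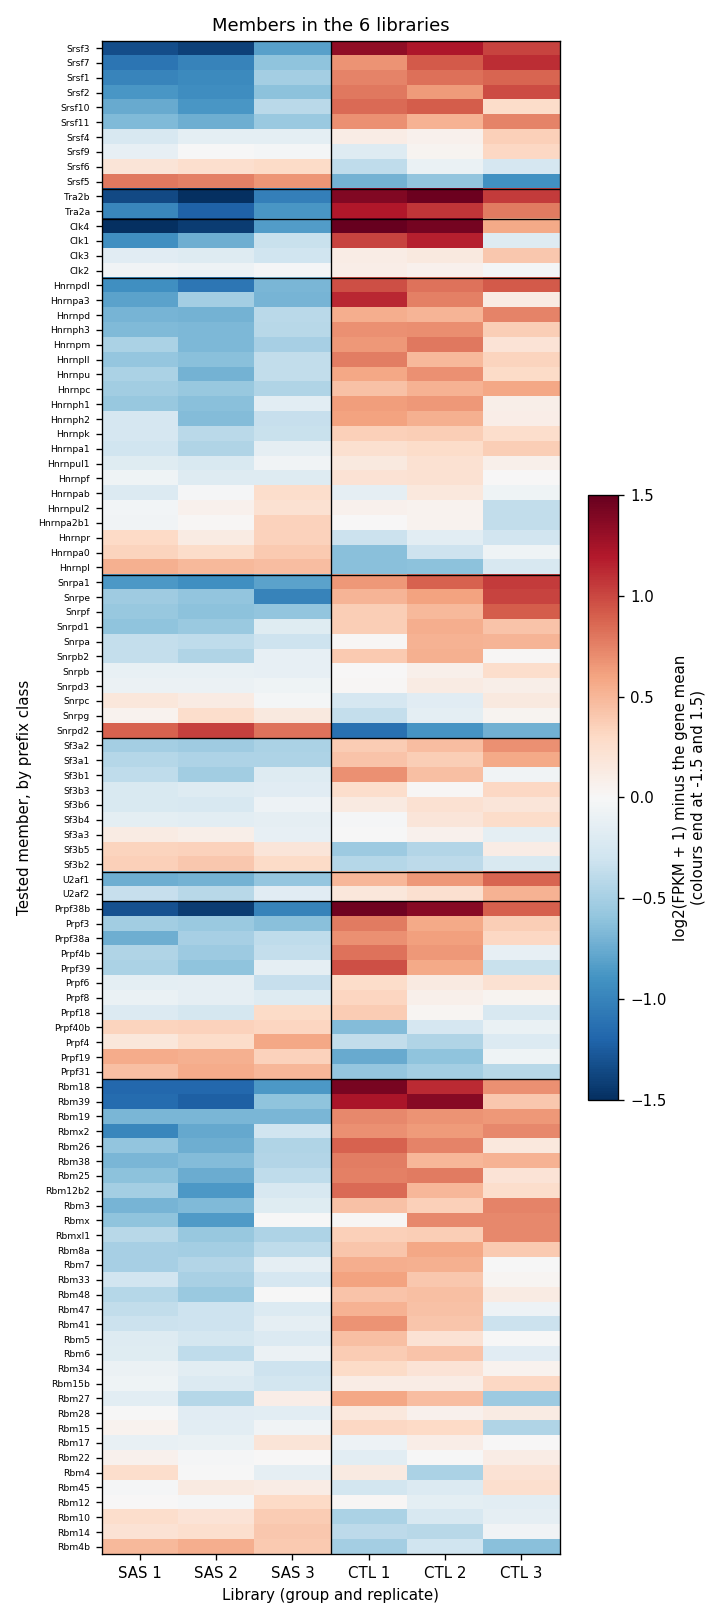
Log2(FPKM + 1) of 102 of the 103 tested members minus the gene's mean over the 6 libraries, with SAS libraries on the left and CTL libraries on the right and classes separated by lines. Blue in SAS and red in CTL marks genes that are lower in SAS, whether called or not. For Rbm39, CTL library 3 is a paler red than the other CTL libraries. For Clk1 and for Prpf39, which was not called, CTL library 3 lies below the gene's mean, on the blue side.

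The libraries numbered 3 lay nearer to each other than the rest. Among the 66 members called lower, CTL library 3 was the lowest CTL library in 37 (56.1%; 55.6% over all genes called lower) and SAS library 3 was the highest SAS library in 49 (74.2%; 61.4% over all genes called lower). Among the 15 members called higher, CTL library 3 was the highest CTL library in 11 (73.3%; 64.0% over all genes called higher). In these 15, SAS library 3 was the highest SAS library in 6 (40%, and 47% over all genes called higher). Its median difference from the mean of SAS libraries 1 and 2 was -0.02 on the log2 scale, so SAS library 3 hardly shifted there. Without replicate 3 of both groups, 71 members were called lower and 18 higher, and the median log2 fold change was -0.82. Of the 66 members called lower, 65 kept that call there, and all 15 called higher kept theirs.

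Many splicing regulators, SR genes above all, are known to carry alternative exons or introns that send part of their own transcripts to nonsense-mediated decay (NMD). Of 51 tested members with an NMD transcript in GENCODE M21, 38 were lower (74.5%) and 7 higher, with a median log2 fold change of -0.97. Of 52 without one, 28 were lower (53.8%) and 8 higher, with a median of -0.32. Over all tested genes the shares lower were 31.6% with an NMD transcript and 28.3% without, with medians of 0.04 and 0.11. Of the 35 members lower by more than 1, 25 had an NMD transcript (71.4%). The share was 46.7% of the 15 members called higher, 27.3% of the 22 not called and 30.8% of all tested genes. The median number of annotated transcripts was 8 for those 35, 7 for members called higher and 5 for all tested genes. For retained-intron transcripts the shares lower were 65.8% of 76 members with one and 59.3% of 27 without. Gene-level FPKM values do not separate these transcripts, and the difference between the shares was not tested.

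Other genes of the splicing pathway, taken from 12 lists of complexes and regulators, were counted in the same fit. Of 127 tested genes in the lists, 53 were lower (41.7%) and 25 higher (19.7%), with a median log2 fold change of -0.26. Over all tested genes the shares were 29.3% and 37.2%, against which each list count that follows is to be read. The 25 higher became 14 without SAS library 1 and 15 with median-of-ratios scaling. The exon junction complex, which marks spliced junctions, had 6 of 9 lower and 1 higher. Of those 6, the calls of Pnn and Magoh, named for this reason, were lost without any 1 of CTL libraries 1 and 2 and SAS library 2 (adjusted p = 0.0661 to 0.157). Its member Rnps1 averaged 183 ± 7.197 FPKM in SAS and 416 ± 56.6 FPKM in CTL (-1.17 (SE 0.12, adjusted p = 8.91e-05)), and Magohb averaged 18.4 ± 0.752 FPKM in SAS and 41.1 ± 8.93 FPKM in CTL (-1.09 (SE 0.16, adjusted p = 0.000503)), with 30.2% of its exonic bases in other genes. Among SR protein kinases and SR-related proteins 7 of 14 were lower and 0 higher by limma. At an unadjusted p under 0.05 the count higher was also 0, as it was with limma voom on reads and in the authors' deposited table. Luc7l, a U1-associated protein, had 19.4, 19.2 and 23.97 FPKM in SAS, against 90.5, 85.95 and 102 FPKM in CTL (-2.11 (SE 0.13, adjusted p = 9.54e-06)). Srek1, an SR-related protein, averaged 13.6 ± 2.01 FPKM in SAS and 35.9 ± 7.56 FPKM in CTL (-1.33 (SE 0.19, adjusted p = 0.000393)).

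Proteins of the snRNPs outside the name classes were split. Of the 7 Snrnp genes 3 were lower and 2 higher. Snrnp35 of the minor spliceosome, which removes a rare type of intron, had 10.3, 10.6 and 9.31 FPKM in SAS, against 34.5, 27.6 and 30.4 FPKM in CTL (-1.52 (SE 0.14, adjusted p = 4.53e-05)). Snrnp25 of the same U11/U12 particle had 26.3, 23.2 and 27.3 FPKM in SAS, against 8.25, 9.11 and 13.3 FPKM in CTL (1.27 (SE 0.19, adjusted p = 0.000524)), so these genes were called in opposite directions. Snrnp48, named to complete the Snrnp genes of that particle, was lower (log2 fold change -1.23, adjusted p = 0.000256). Of the 9 minor spliceosome genes 4 were lower and 2 higher, and Zmat5 had the larger rise, averaging 61.8 ± 8.202 FPKM in SAS and 18.8 ± 5.07 FPKM in CTL (1.69 (SE 0.20, adjusted p = 0.000152)), with 27.1% of its exonic bases in other genes.

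Of 13 other U2 and tri-snRNP genes 4 were lower and 2 higher. Of these calls, those of Ppih and Sart3, named for this reason, were fragile. Ppih, called higher, had overlapping groups and 36.3% of its 50-base words in other genes. Its call was lost without any library other than SAS library 2 (adjusted p = 0.0678 to 0.135). The lower call of Sart3 was lost without any 1 SAS library (adjusted p = 0.0893 to 0.128). Sf1, the branch point binding protein that precedes the U2 snRNP, averaged 349.6 ± 18.1 FPKM in SAS and 688 ± 60.9 FPKM in CTL (-0.97 (SE 0.11, adjusted p = 0.000159)), and Usp39 of the tri-snRNP averaged 66.9 ± 2.14 FPKM in SAS and 142 ± 13.2 FPKM in CTL (-1.07 (SE 0.11, adjusted p = 6.22e-05)). In the LSm ring, 3 of 8 were lower and 1 higher. Lsm1, part of the ring that acts in mRNA decay, averaged 19.9 ± 0.296 FPKM in SAS and 45.2 ± 3.16 FPKM in CTL (-1.15 (SE 0.11, adjusted p = 5.98e-05)), and Lsm4 averaged 76.4 ± 3.47 FPKM in SAS and 162 ± 3.79 FPKM in CTL (-1.07 (SE 0.09, adjusted p = 3.57e-05)). The SMN complex, which loads Sm proteins onto snRNAs, had 4 of 11 lower and 4 higher (36.4% each, beside 29.3% and 37.2% of all tested genes). The higher calls of Gemin8 and Clns1a, named for this reason, were lost without any 1 of SAS libraries 1 and 2 and CTL library 2 (adjusted p = 0.0567 to 0.143). Median-of-ratios scaling also lost both (adjusted p = 0.101 and 0.116). Gemin5, not called, was called higher without CTL library 3 (adjusted p = 0.0261). In the authors' deposited table, of the 12 genes of this list, 4 were lower and 2 higher. Smn1 had 99.9, 96.4 and 96.6 FPKM in SAS, against 282, 312 and 356 FPKM in CTL (-1.68 (SE 0.11, adjusted p = 1.21e-05)), and its partner Strap averaged 109 ± 2.81 FPKM in SAS and 255 ± 13.8 FPKM in CTL (-1.22 (SE 0.09, adjusted p = 2.2e-05)).

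Of 18 genes of the Prp19 complex and step factors 7 were lower and 4 higher, with Cwc22 at -1.31 and Cwc27 at -1.19 on the log2 scale (adjusted p = 0.000721 and 0.000662). Of 8 spliceosomal helicases 3 were lower and 2 higher. Ddx46, which remodels the U2 snRNP, averaged 4.09 ± 0.637 FPKM in SAS and 18.8 ± 3.34 FPKM in CTL (-1.95 (SE 0.19, adjusted p = 5.39e-05)), and Ddx39b, also of mRNA export, averaged 144 ± 8.405 FPKM in SAS and 317 ± 43.5 FPKM in CTL (-1.13 (SE 0.12, adjusted p = 0.000106)). Of 15 tissue splicing regulators 6 were lower and 3 higher, among them Tial1 (-1.47 (SE 0.11, adjusted p = 1.74e-05)) and Ptbp2 (-1.35 (SE 0.31, adjusted p = 0.00477)). The higher calls of Mbnl3 and Tia1, named for this reason, were lost without any 1 SAS library (adjusted p = 0.0535 to 0.145). They were also lost under quantile normalization (adjusted p = 0.636 and 0.0742). The authors' deposited table had 9 of the 19 genes of this list in it lower and 1 higher. In the FET and paraspeckle list 4 of 8 were lower and 2 higher, among them Pspc1 (-2.09 (SE 0.15, adjusted p = 1.5e-05)) and Taf15 (-1.93 (SE 0.18, adjusted p = 4.8e-05)). Nono, chosen after its values were seen, encodes a partner of the Pspc1 protein and had 431, 376 and 414 FPKM in SAS, against 109, 150.04 and 188 FPKM in CTL (1.48 (SE 0.19, adjusted p = 0.000232)).

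The NMD factors, which read the transcripts described above, were 4 lower and 3 higher of 10. Several of these calls were fragile, and their genes are named for this reason. The lower calls of Smg1, Upf2 and Upf3a were lost without any 1 of SAS libraries 1 and 2 and CTL library 2 (adjusted p = 0.054 to 0.0935). The groups of Smg1 and of Upf2 overlapped. Smg8, called higher, lost its call without SAS library 1 or 2 (adjusted p = 0.0528 and 0.0503). Smg9 averaged 38.02 ± 4.49 FPKM in SAS and 75.3 ± 8.98 FPKM in CTL (-0.97 (SE 0.13, adjusted p = 0.000363)). Smg6, the endonuclease of the pathway, averaged 23.6 ± 4.403 FPKM in SAS and 15.3 ± 3.16 FPKM in CTL (0.60 (SE 0.19, adjusted p = 0.0227)), and its call was lost without any 1 of CTL libraries 1 and 2 and SAS libraries 1 and 3 (adjusted p = 0.0524 to 0.0809).

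**Figure D5:**
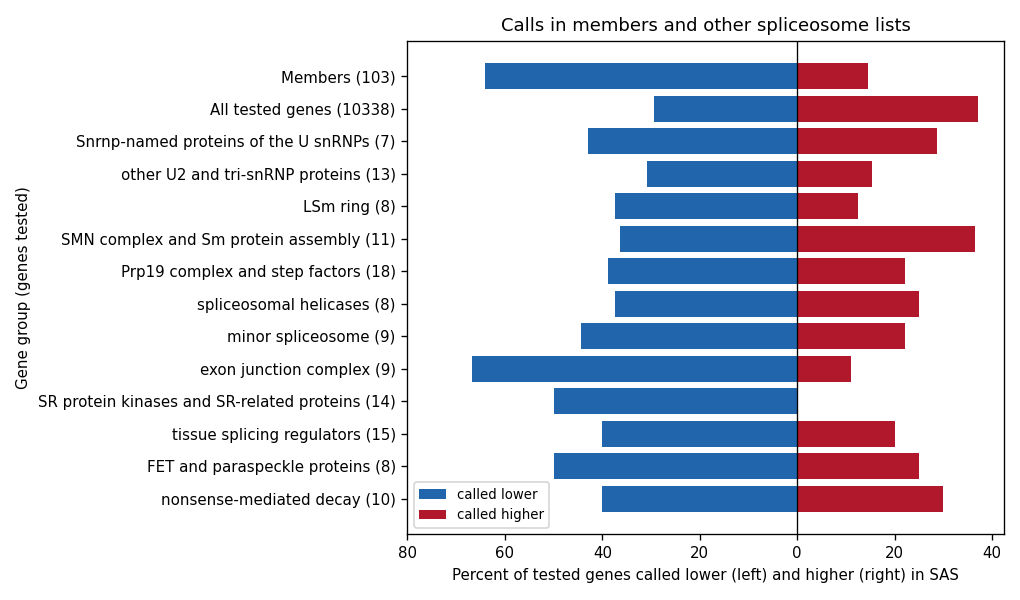
Percent of tested genes called lower (left) and higher (right) in SAS among the members, all tested genes and the 12 lists, with the number of genes tested in parentheses. The members stand at 64.1% lower and 14.6% higher, and all tested genes at 29.3% and 37.2%.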

How the data were processed

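RNA from MC3T3-E1 cells was sequenced as paired Illumina NovaSeq reads, with a plant RNA kit and a bacterial rRNA depletion kit named in the labels' protocols, and all 6 libraries carry the same batch label. Per the submitters' processing notes, the tools were edgeR, HTSeq 0.13.5, fastp 0.23.0 and HISAT2 2.2.1, with no roles stated, and the genome build was mm39. The gene starts and ends of 108 of the 109 members are those of GENCODE M21 on GRCm38, so coordinates are given on GRCm38. The authors deposited FPKM values per library, a library-size-adjusted signal that helped to recover reads, and their own log2 fold change, p-value and adjusted p-value per gene, per the file headers.

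Genes that reached 1 FPKM in 3 or more libraries (10338) were compared on log2(FPKM + 1), which understates changes of low genes, with limma 3.58.1 (lmFit, eBayes with an intensity trend) in R 4.3.3, in 1 fit over all of them. The fit was also run on simulated data with few changed genes, a fixed spread and no library that stood apart. That setting differs from these data, so the run does not measure error rates here. Whole reads, within a set tolerance of 1e-05, were found for 100% of FPKM values above 0. For 14002 genes more than 1 solution met that tolerance, and the one nearest to the deposited adjusted signal was taken. The read numbers given here are thus estimates. The limma voom test on those reads was an alternative added after the data were seen. Shared sequence was taken from GENCODE M21 as exonic bases inside other genes and as 50-base words in their transcripts. The members, the lists and the rule for named genes were chosen with earlier results of these data known. The rule takes 20 key members, the largest called changes of each class (up to 3 in each direction, at 5 FPKM or more), the most abundant member of each class, all members of the smaller classes, and up to 2 called genes per list. Other names are marked, or complete a class or a count. The values of 1 tested member are not reported here, though it is in the counts. Of 118 annotated protein-coding names that fit the rule, 9 were not analysed here. Tables and plots were made in Python 3.11.15 with numpy 2.4.6, pandas 2.3.3 and matplotlib 3.10.9.

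The results were recomputed with each library left out and with both replicates 3 left out, with the replicate block, and by voom. Scaling was varied by median-of-ratios factors and by quantile normalization, the pseudocount by 0.1, the filter by none and by 5 FPKM, and the variance prior by leaving out the trend. The call rule was varied to an adjusted p under 0.01 and to an absolute change above 1 (log2).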

Additional observations from a re-analysis of the deposited data

How the results depend on the processing

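Of the 66 members called lower, 50 kept the call under all 15 alternatives at the same threshold, and Rbm12b2 kept it in the 14 that tested it. Of the 15 called higher, 13 kept the call under all 15, and no member was called in the opposite direction under any of them. Across these alternatives 54 to 71 members were lower and 13 to 18 higher, and all 9 classes kept more members lower than higher. With a minimum absolute log2 fold change of 1, 35 members were lower and 3 higher, and 28 other pathway genes lower and 3 higher. At a threshold of 0.01, 49 members were lower and 13 higher, and 13 other pathway genes higher. Median-of-ratios scaling moved the median of all tested genes by -0.117 on the log2 scale, which left 34.1% of them lower and 33.2% higher; 71 members were then lower and 14 higher, and 15 other pathway genes were higher. Leaving out 1 library gave a median log2 fold change of members of -0.7705 (without CTL replicate 3) to -0.5664, and 14 (without SAS replicate 1) to 26 (without CTL replicate 3) other pathway genes higher. Without replicate 3 of both groups that median was -0.82, and the log2 fold change of Hnrnpa2b1, not called, turned to -0.0504 (adjusted p = 0.606). The log2 fold change of Sf3a3, not called, turned to -0.0652 under median-of-ratios scaling (adjusted p = 0.69). The cause of these shifts was not tested.

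Whether the replicate numbers pair the libraries is not known. Deviations from the group means correlated at 0.0363, -0.194 and -0.174 for numbers 1, 2 and 3, and at -0.136 to 0.212 for unlike numbers. With 3 libraries a group the deviations sum to 0 in each group, so these values cannot decide it. With the replicate block 59 members were lower and 15 higher, and 48 other pathway genes lower and 21 higher. Depth limits few members: 6 of the tested ones, Clk4 among them, had under 100 reads in a library.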
